A study of Homo sapiens with 4 samples.

Results

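The SLC38 family of sodium-coupled neutral amino acid transporters was examined through the 10 members chosen by gene symbol (SLC38A1 to SLC38A7, SLC38A9, SLC38A10 and SLC38A11), out of 61806 genes in the deposited table. RNA was measured in JJ012, a human chondrosarcoma cell line, and in 143B, a human osteosarcoma cell line, both grown detached in suspension. Each line had 1 untreated control library and 1 library from cells given 1 mM melatonin for 72 h, so all 4 groups share the suspension culture and each condition has 1 library. The study asked how melatonin alters glutamine uptake in detached bone cancer cells, and here the use of the family in each line and its change with melatonin were compared. A difference within a line therefore compares 1 library with another, and no spread between cultures was measured.

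SLC38 proteins move small neutral amino acids such as glutamine across membranes together with sodium. Members of system A (SLC38A1, SLC38A2 and SLC38A4) take up alanine, serine and glutamine at the cell surface, and members of system N (SLC38A3 and SLC38A5) exchange sodium and glutamine, asparagine or histidine against protons and can run in either direction. SLC38A7 exports glutamine and asparagine from the lysosome, and SLC38A9 senses arginine there and signals to mTORC1. SLC38A6, SLC38A10 and SLC38A11 are less well characterised.

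The libraries held 19218343, 16143700, 15889564 and 17164824 counts, in the order JJ012 control, JJ012 melatonin, 143B control and 143B melatonin, which is kept below. A gene with at most 3 counts in a library was taken to be at the floor there, which lay between 0.156 and 0.189 CPM (counts scaled to the library total). The lines were checked against markers of their tissue of origin. The cartilage collagen gene COL2A1 had 0 counts in both JJ012 libraries and the cartilage proteoglycan gene ACAN had 4 and 3 counts. The defining cartilage matrix genes were thus at or near 0 there. The cartilage transcription factor gene SOX9 stood at 15.06, 6.16, 15.48 and 12.09 FPKM, so it did not set JJ012 apart from 143B. The bone regulator gene RUNX2 stood at 3.02, 2.59, 4.28 and 2.75 FPKM. In 143B, SP7 had 0 and 1 counts and IBSP had 0 counts in both libraries. COL1A1, the main bone collagen gene, stood at 10.92 and 0.77 FPKM in JJ012 (1891 and 112 counts) and at 0.49 and 0.33 FPKM in 143B. The summed FPKM of 10 osteoblast markers were 108.87, 69.36, 6.99 and 5.11, larger in the chondrosarcoma line. The summed FPKM of 12 chondrocyte markers were 39.83, 10.05, 17.03 and 13.42. This sum was larger in JJ012 without melatonin and smaller there with melatonin. At least 1 FPKM was reached by 2 of these 12 in each JJ012 library and by 1 in each 143B library. The osteoblast sum and SOX9 thus did not sort the lines by tissue of origin, and the chondrocyte sum did so in the control libraries alone. Of the leukocyte markers, 1 of 5 reached 1 FPKM in each JJ012 library and 0 of 5 in 143B. It was not the leukocyte gene PTPRC, which stood at 0.14, 0.02, 0.02 and 0.01 FPKM. The summed FPKM of the 5 markers were 11.33, 4.25, 0.26 and 0.08. The leukocyte sum, the osteoblast sum and COL1A1 fell in the same order over the libraries as SLC38A5, and their part in its result was not tested. In bulk RNA, fewer cells of a type and less RNA per cell cannot be told apart.

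Promoter sequences are shown for SLC38A5, the transporter followed by the study, and for the system A genes SLC38A1, SLC38A2 and SLC38A4, which lie in 1 cluster on chromosome 12 and were all lower in JJ012. They come from RefSeq on GRCh38.p14, where 9 of the 10 members had an entry (SLC38A3 had none), and read from 250 bases before the start site on the minus strand. Letters of motifs that lie wholly within a printed sequence are in capitals. SLC38A5 is shown at chrX:48470261-48470510, SLC38A2 at chr12:46372868-46373023, where 94 bases that the GENCODE annotation places in an exon were left off, SLC38A1 at its upstream start (chr12:46267988-46268237) and its downstream start (chr12:46266517-46266766), and SLC38A4 at chr12:46825998-46826247. In the GENCODE annotation, the SLC38A1 and SLC38A4 stretches lie inside longer transcripts of the same genes.
SLC38A5: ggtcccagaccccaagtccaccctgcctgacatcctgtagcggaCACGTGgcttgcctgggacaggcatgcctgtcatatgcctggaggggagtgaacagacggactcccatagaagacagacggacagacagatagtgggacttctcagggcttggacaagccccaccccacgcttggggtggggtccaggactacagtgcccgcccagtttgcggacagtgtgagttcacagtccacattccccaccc
SLC38A2: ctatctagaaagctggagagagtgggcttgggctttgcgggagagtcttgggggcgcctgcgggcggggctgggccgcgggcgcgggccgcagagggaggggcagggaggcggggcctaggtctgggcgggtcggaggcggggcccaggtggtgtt
SLC38A1 upstream start: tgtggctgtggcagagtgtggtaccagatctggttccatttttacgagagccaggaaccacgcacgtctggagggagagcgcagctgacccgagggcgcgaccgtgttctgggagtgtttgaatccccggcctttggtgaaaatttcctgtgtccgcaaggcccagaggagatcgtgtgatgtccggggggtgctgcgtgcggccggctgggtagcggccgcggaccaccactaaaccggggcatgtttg
SLC38A1 downstream start: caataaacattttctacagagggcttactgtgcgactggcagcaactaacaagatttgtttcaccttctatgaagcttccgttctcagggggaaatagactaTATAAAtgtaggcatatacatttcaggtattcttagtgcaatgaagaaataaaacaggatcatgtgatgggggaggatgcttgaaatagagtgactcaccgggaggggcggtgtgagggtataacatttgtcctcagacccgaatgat
SLC38A4: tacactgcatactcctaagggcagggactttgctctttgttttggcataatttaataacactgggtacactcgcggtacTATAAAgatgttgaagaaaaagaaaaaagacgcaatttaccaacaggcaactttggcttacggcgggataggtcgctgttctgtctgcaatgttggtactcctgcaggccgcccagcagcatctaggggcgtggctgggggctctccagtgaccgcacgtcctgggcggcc

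The sequences were searched on both strands for CACGTG (the E-box), TATAAA (the TATA box) and TGATGNAAN (the core of the amino acid response element), over the 250 bases before and 50 bases after each start. Of 35116 RefSeq promoters of the same length, 7.26% held CACGTG, 11.5% held TATAAA and 3.61% held TGATGNAAN. The SLC38A5 promoter held CACGTG at position -206 from the start site, the downstream SLC38A1 start held TATAAA at -148, and SLC38A4 held it at -171. The same SLC38A1 start held TGATGNAAN at position -4, the 1 match to these letters among the 13 promoters of the members. This match runs past the end of the printed sequence, so its letters are not in capitals. Outside the printed sequences, SLC38A7 held CACGTG at position 14 and SLC38A9 held TATAAA at -191 from 1 of its starts. The SLC38A2 promoter held none of these letters in the stretch searched, and the rest of the gene was not searched. The SLC38A2 promoter had 33 CpG dinucleotides and SLC38A5 had 7, against a median of 14 over all promoters. A match of letters is a description and not a bound site.

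The lines used different members of the family. Divided by exonic length and library total (FPKM), the summed level of the 10 members was 137.22, 156.94, 256.09 and 248.25, and the members that made up this sum differed. SLC38A2, the widely expressed system A transporter, gave 53.7% of the summed FPKM in the JJ012 control, 73.3% in melatonin-treated JJ012, 88.1% in the 143B control and 90.3% in melatonin-treated 143B. SLC38A10 gave 31.7% and 18.7% in JJ012 but 1.42% and 1.96% in 143B. SLC38A1 held the second place in 143B, with 7.88% and 5.43%, and 0.0114% and 0.0118% in JJ012. SLC38A5 gave 7.88% of the sum in the JJ012 control, 1.41% after melatonin, and 0.177% and 0.0117% in 143B. As a share of counts, SLC38A5 was 4.69% in the JJ012 control (95% exact Clopper-Pearson interval 4.39% to 5.02%) and 0.833% after melatonin (0.702% to 0.98%). All intervals given here cover counting error alone, because each condition has 1 library. PCR copies of a molecule are counted as separate reads, which these intervals do not allow for.

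**Figure D1:**
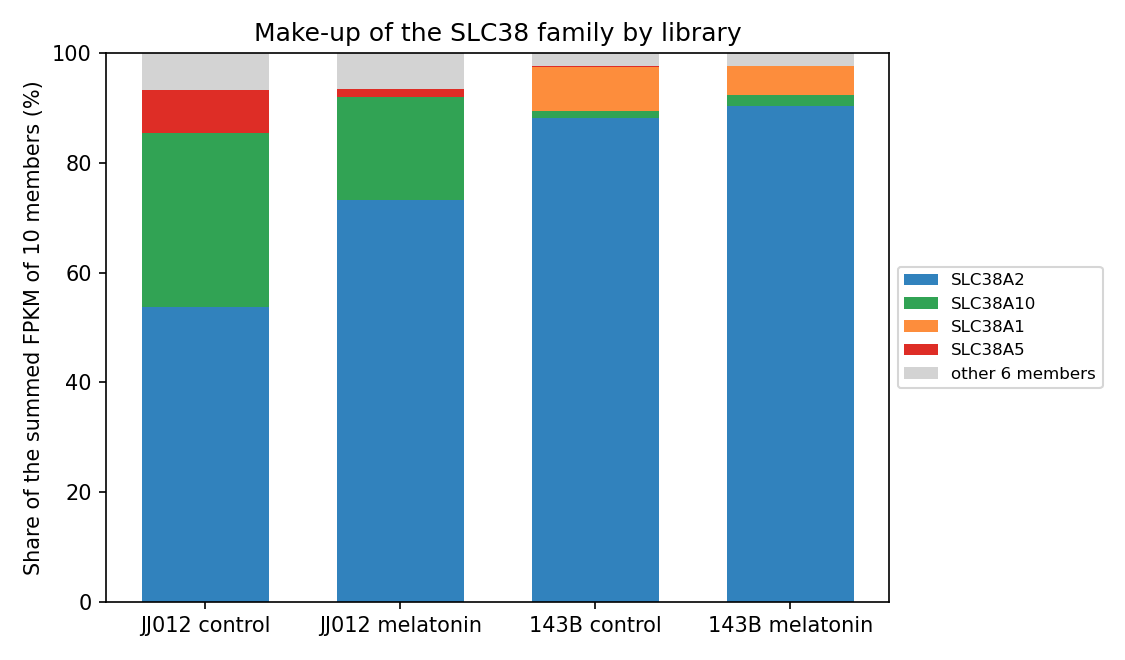
Share of each SLC38 member in the summed FPKM of the 10 members, in percent, as 1 stacked bar per library. SLC38A2 takes 53.7% of the JJ012 control bar and 88.1% of the 143B control bar, while SLC38A10 takes 31.7% and 1.42%.

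By role, system A gave 53.7%, 73.4%, 96.8% and 96.4% of the summed FPKM. System N gave 8.89%, 1.45%, 0.407% and 0.201%, and the lysosomal pair gave 3.78%, 4.88%, 0.837% and 0.923%. System N thus had its largest share in the JJ012 control. In that library the order of the members by FPKM was SLC38A2, SLC38A10, SLC38A5, SLC38A7, SLC38A6, SLC38A9 and SLC38A3, and each neighbour in this order differed beyond counting error. SLC38A4, SLC38A11 and SLC38A1 were at the floor there and could not be ordered. After melatonin in JJ012, SLC38A5 had moved behind SLC38A7, SLC38A9 and SLC38A6. SLC38A7 and SLC38A9 could not be told apart (ratio of counts per length 1.05, 95% interval 0.921 to 1.19), and neither could SLC38A6 and SLC38A5 (1.14, 0.916 to 1.41). In the 143B control the order was SLC38A2, SLC38A1, SLC38A10 and SLC38A4, followed by SLC38A6 and SLC38A9, which were not separable (1.07, 0.839 to 1.35), and then by SLC38A7, SLC38A3 and SLC38A5, whose neighbours were also not separable.

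**Figure D2:**
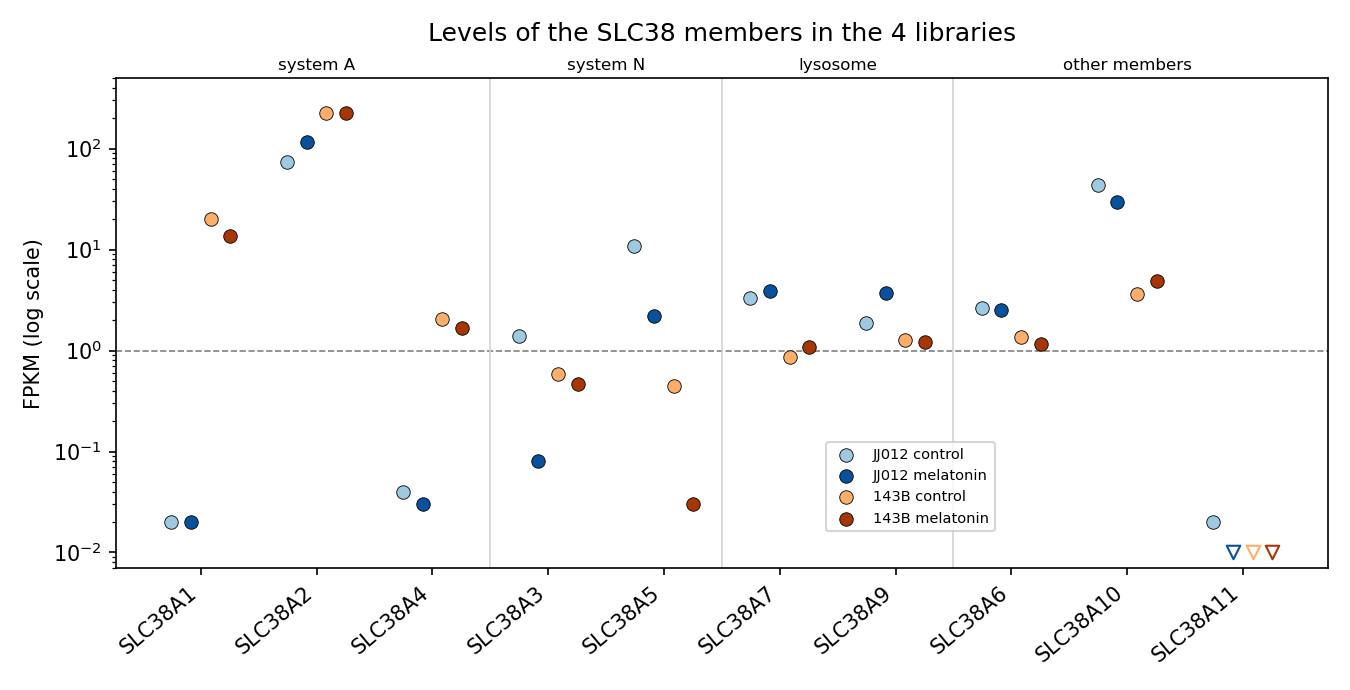
FPKM of each SLC38 member on a log axis, with 1 point per library and the members grouped by role; open triangles mark libraries where the gene is listed at 0, and the dashed line marks 1 FPKM. SLC38A1 lies at 0.02 FPKM in both JJ012 libraries and at 20.19 and 13.48 FPKM in 143B, and SLC38A5 is highest in the JJ012 control at 10.82 FPKM.

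Between the control libraries, differences were described by the log2 of (JJ012 FPKM + 1) over (143B FPKM + 1), for genes with at least 1 FPKM in either library, and a gene was counted at an absolute value of at least 0.58, the fold threshold of the study's methods. The pseudocount understates differences of genes with low FPKM. Of the 9 members tested, 5 were higher in JJ012 and 3 were lower. Over all 16929 genes tested, 68.7% differed by this rule (41.3% higher and 27.4% lower in JJ012, and 64.6% either way among protein-coding genes), so a count of this size is close to what most genes did, and the median log2 difference of all genes was 0.29. Scaling with TMM factors (trimmed mean of M values) moved that median to 0.01, and the share of differing genes that were higher in JJ012 from 60.1% to 49.6%. SLC38A3 and SLC38A6 no longer passed with TMM, at 0.41 and 0.38. By a rule on the ratio of CPM (at least 0.58 in size with a 95% interval that excludes 0), 8 members differed, against 71.1% of genes.

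The system A genes were lower in JJ012. SLC38A2 (ENSG00000134294) stood at 73.62, 115.09, 225.67 and 224.28 FPKM (9209, 12094, 23340 and 25058 counts), and was among the 438 most highly expressed genes of every library. The control difference was -1.60 on the log2 scale, a 3.07-fold difference by CPM. SLC38A1 (ENSG00000111371), a glutamine transporter of neurons and many proliferating cells, had 3, 3, 3213 and 2318 counts, which put both JJ012 libraries at the floor and 143B at 20.19 and 13.48 FPKM. By CPM it was 1295-fold lower in the JJ012 control than in the 143B control, with a smallest fold of 443 in the 95% interval, since the JJ012 value rests on 3 counts. SLC38A4 (ENSG00000139209), a system A member known from liver, had 3, 2, 134 and 119 counts and was 54-fold lower in the JJ012 control by CPM, with a smallest fold of 18.1 in the 95% interval. Both genes were thus at the floor in JJ012 with and without melatonin.

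These 3 genes form a cluster on chromosome 12 (hg38, minus strand), with SLC38A1 at chr12:46183063-46270017, SLC38A2 at chr12:46358188-46372773 and SLC38A4 at chr12:46764761-46832408. The cluster spans 649 kb, with 88.2 kb between SLC38A1 and SLC38A2 and 392 kb between SLC38A2 and SLC38A4. SLC38A2, which lies between the others, was expressed in JJ012 while both flanking members were at the floor. The nearest protein-coding genes outside the cluster were expressed in every library. SCAF11 stood at 8.73, 14.97, 13.89 and 11.11 FPKM, and AMIGO2 at 4.49, 3.33, 8.18 and 9.38 FPKM. The long noncoding RNA SLC38A4-AS1, which overlaps SLC38A4 on the other strand, had 100, 51, 55 and 78 counts, so that it was not at the floor in JJ012. Whether the counting used strand is not given in the sources used here, and reads of overlapping genes on opposite strands may not be separable.

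**Figure D3:**
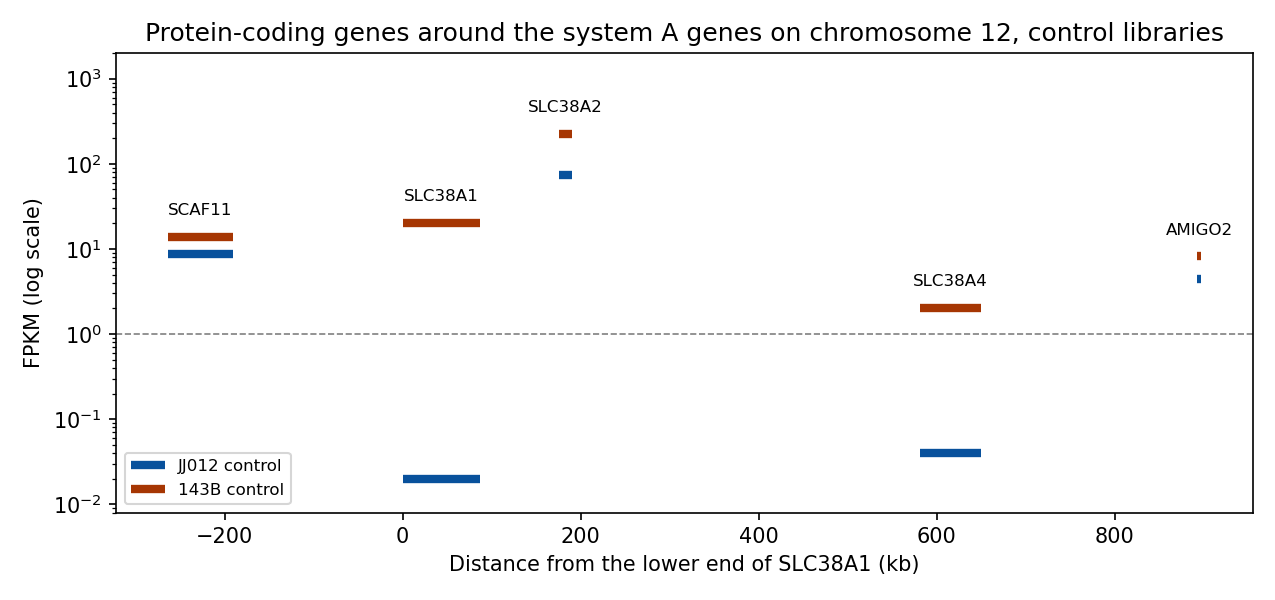
Protein-coding genes around the system A cluster on chromosome 12 in the control libraries, with distance from the lower end of SLC38A1 in kb on the horizontal axis and FPKM on a log axis; each bar covers the length of 1 gene and the dashed line marks 1 FPKM. SLC38A1 and SLC38A4 lie at 0.02 and 0.04 FPKM in JJ012, while SLC38A2 between them lies at 73.62 FPKM.

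Members of system N, the lysosome and the remaining group accounted for the 5 that were higher in the JJ012 control. SLC38A5 (ENSG00000017483, chrX:48458537-48470260, minus strand) stood at 10.82, 2.21, 0.45 and 0.03 FPKM (835, 143, 29 and 2 counts), so that the JJ012 control was above the other libraries and melatonin-treated 143B was at the floor. The control difference was 3.03 on the log2 scale, or 23.8-fold by CPM with a smallest fold of 16.5 in the 95% interval. SLC38A10 (ENSG00000157637) stood at 43.51, 29.35, 3.65 and 4.86 FPKM and was 11.9-fold higher in the JJ012 control by CPM. SLC38A7, the lysosomal exporter, stood at 3.33, 3.92, 0.86 and 1.08 FPKM, a control difference of 1.22. For these 3 genes, as for SLC38A6 and SLC38A9, both JJ012 libraries lay above both 143B libraries.

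SLC38A9, the lysosomal arginine sensor, stood at 1.86, 3.74, 1.28 and 1.21 FPKM, and its control difference of 0.33 did not pass. SLC38A6 stood at 2.62, 2.50, 1.37 and 1.17 FPKM. SLC38A3 (chromosome 3) stood at 1.38, 0.08, 0.59 and 0.47 FPKM, so that JJ012 was above 143B without melatonin and below it with melatonin. SLC38A11 had 3, 0, 0 and 0 counts and was not detectable at this depth. SLC38A6 overlaps TRMT5 and SLC38A9 overlaps DDX4, each on the other strand. TRMT5 had between 484 and 762 counts per library and DDX4 10 or fewer.

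The line difference was also tested over all 4 libraries with edgeR's quasi-likelihood test, in an additive fit of line and treatment with Benjamini-Hochberg adjustment over 19519 genes. The fit has 1 residual degree of freedom, which is the disagreement of the lines over melatonin. In the estimate of the dispersion of counts, the prior degrees of freedom were infinite, so each gene took the trend over all genes there. The common biological coefficient of variation was 0.306. How far the quasi-likelihood step also drew on a gene's own disagreement between the lines was not recorded. The p-values rest on these 4 libraries alone, with a spread at least partly pooled over genes. Of the 9 members fitted, 6 passed an adjusted p of 0.05, as did 47.7% of all genes. The same number of members passed with DESeq2's Wald test (33.9% of genes), with DESeq2 size factors in edgeR (46.9%) and without a filter on low counts (22.8%). SLC38A1 had a log2 fold change of -10.09 (edgeR adjusted p = 1.25e-50), SLC38A4 of -5.90 (edgeR adjusted p = 8.36e-13) and SLC38A2 of -1.49 (edgeR adjusted p = 0.00313). SLC38A5 was higher in JJ012 by 4.81 (edgeR adjusted p = 1.56e-16), SLC38A10 by 2.89 (edgeR adjusted p = 1.63e-09) and SLC38A7 by 1.71 (edgeR adjusted p = 0.000394). SLC38A9 (edgeR adjusted p = 0.0713), SLC38A6 (0.132) and SLC38A3 (0.574) did not pass.

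In JJ012, melatonin was compared with control by the same fold rule. SLC38A2 and SLC38A9 rose and SLC38A3 and SLC38A5 fell, that is 4 of the 7 members tested, against 38.2% of the 15794 genes tested (33.9% of protein-coding genes). The rule on the ratio of CPM also called 4 members, against 42.7% of genes. The 7 members tested had a median log2 fold change of -0.05, and all tested genes of 0.01. SLC38A5 fell by 1.88 on the log2 scale, from 835 to 143 counts. By CPM this was 4.9-fold, with a log2 ratio of -2.29 (95% interval -2.56 to -2.04). SLC38A3, the other system N member, fell from 105 to 5 counts, a log2 fold change of -1.14 with the pseudocount and a log2 ratio of CPM of -4.14 (-5.79 to -2.87). Both system N genes were therefore lower with melatonin in this line, SLC38A3 from a level near 1 FPKM.

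SLC38A2 rose in JJ012 from 73.62 to 115.09 FPKM, with a log2 fold change of 0.64, and its counts were the most numerous of the family. SLC38A9 rose from 315 to 532 counts, a log2 fold change of 0.73 and 2.01-fold by CPM. In JJ012 the log2 fold change moved with exonic length. Less the running median over genes of like length, SLC38A2 and SLC38A9 no longer passed (0.51 and 0.48), SLC38A10 did (-0.82 against -0.55), and SLC38A5 was at -1.83. SLC38A10 went from 43.51 to 29.35 FPKM, a log2 ratio of CPM of -0.57 (-0.63 to -0.51). SLC38A7 and SLC38A6 did not pass, with log2 fold changes of 0.18 and -0.05.

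In 143B, 0 of the 7 members tested passed the fold rule with melatonin, against 12.7% of the 14135 genes tested (6.09% higher and 6.65% lower, and 6.09% either way among protein-coding genes). SLC38A2 had a log2 fold change of -0.01 and was level at 225.67 and 224.28 FPKM. SLC38A1 went from 3213 to 2318 counts, a log2 fold change of -0.55 and a log2 ratio of CPM of -0.58 (-0.66 to -0.51). SLC38A5 was below 1 FPKM in both libraries and was not among the members tested. Its counts were 29 and 2, a log2 ratio of CPM of -3.97 (-7.08 to -1.99), or 15.7-fold with a smallest fold of 3.96 in the interval. By the rule on the ratio of CPM, SLC38A1 and SLC38A5 passed, against 16.5% of genes. SLC38A10 was at 3.65 and 4.86 FPKM, a log2 ratio of CPM of 0.42 (0.24 to 0.59), and the intervals of SLC38A3, SLC38A4, SLC38A6, SLC38A7 and SLC38A9 included 0.

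**Figure D4:**
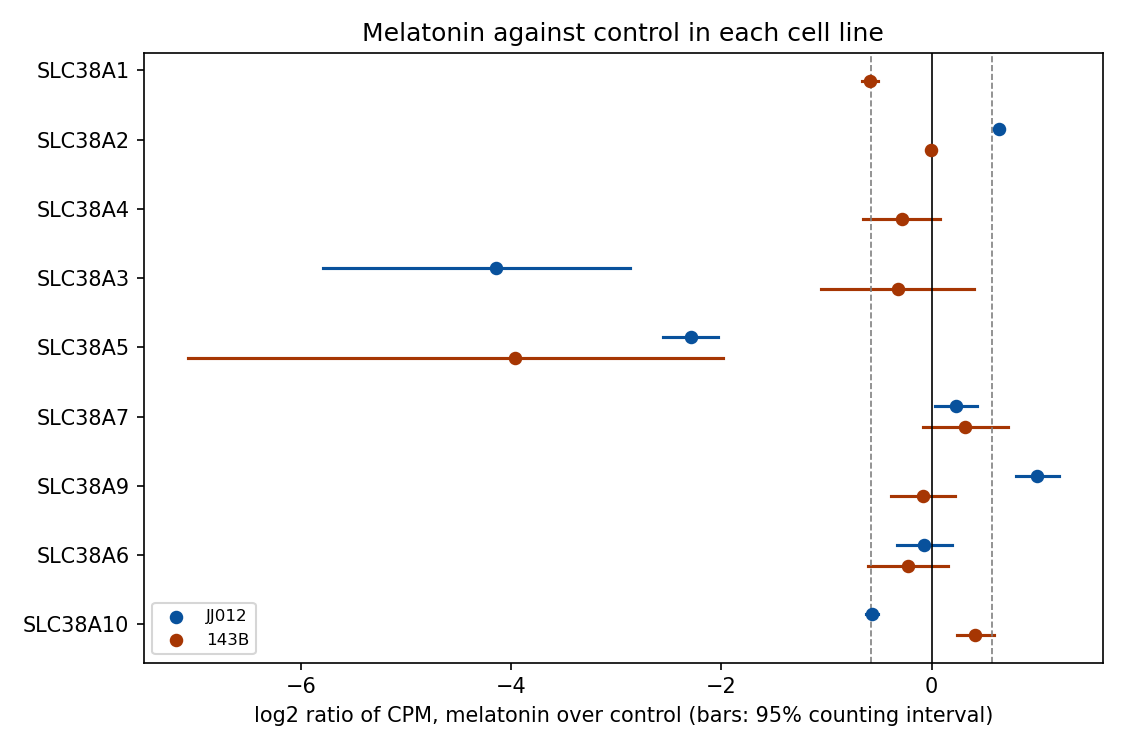
Log2 ratio of CPM, melatonin over control, for each SLC38 member in JJ012 and 143B, with bars for the 95% counting interval and dashed lines at 0.58 on either side of 0; SLC38A11, and SLC38A1 and SLC38A4 in JJ012, are left out because both libraries were at 3 counts or fewer. SLC38A5 lies left of the dashed line in both lines, at -2.29 and -3.97, while SLC38A3 does so in JJ012 at -4.14 and its interval in 143B includes 0.

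The common melatonin effect over both lines was tested in the same edgeR fit. SLC38A5 was the 1 member that passed, with a log2 fold change of -2.67 (edgeR quasi-likelihood adjusted p = 0.000515, lower in 2 of 2 lines), as did 0.354% of all genes. The DESeq2 Wald test with the same design gave -2.92 and an adjusted p of 0.344, where 0.0359% of genes passed, so this call depended on the tool. Other edgeR settings gave an adjusted p of 0.000419 and 0.00122. The study picked SLC38A5 on these libraries, so the test is not independent evidence. In separate assays, the study reported lower SLC38A5 mRNA by qPCR and lower protein by Western blot with melatonin in both lines. SLC38A3 had a log2 fold change of -2.0 and an edgeR adjusted p of 0.458.

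The difference of the melatonin effect between the lines was taken as the log2 of the ratio of CPM ratios, JJ012 less 143B, with an exact conditional 95% interval. It was 0.65 for SLC38A2 (0.61 to 0.70), 1.09 for SLC38A9 (0.72 to 1.46), -3.79 for SLC38A3 (-5.61 to -2.29) and -0.98 for SLC38A10 (-1.17 to -0.80). These 4 intervals excluded 0. For SLC38A5 the difference was 1.67 (-0.34 to 4.80), so that a difference between the lines could not be seen at the 2 counts left in melatonin-treated 143B. The intervals of SLC38A1, SLC38A4, SLC38A6 and SLC38A7 included 0.

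The genes whose pattern over the 4 libraries was most like that of SLC38A5 were found by the root mean square difference of log2(FPKM + 0.1), each gene centred on its own mean, among 18106 genes. They were PDZK1IP1 (0.248), TFF2 (0.262), the unnamed gene ENSG00000289189 (0.279), TM4SF1-AS1 (0.366) and HSPB1P1 (0.446), against a median of 2.275 over all genes compared. PDZK1IP1, which encodes a small membrane protein, stood at 7.71, 1.69, 0.18 and 0.00 FPKM. TFF2, a secreted trefoil peptide gene, stood at 10.20, 2.39, 0.27 and 0.00 FPKM. All 5 genes had 8 counts or fewer in each 143B library. The nearest members of the family were SLC38A10 (1.212) and SLC38A7 (1.716).

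Other genes of amino acid supply were described by lists. Of 15 tested transporters of other families, 9 rose and 0 fell with melatonin in JJ012, where 19.6% of all genes rose and 18.6% fell. The median log2 fold change of the list was 0.85, and 0.61 less the length trend. SLC7A2, a cationic amino acid transporter, went from 1.20 to 14.20 FPKM, SLC7A11, the cystine and glutamate exchanger, from 1.13 to 10.35 FPKM, and SLC7A1, another cationic transporter, from 4.12 to 14.67 FPKM. In 143B, 0 of 12 passed, against 12.7% of all genes, with a median of -0.06. The rule on the ratio of CPM called 11 of these transporters higher and 2 lower in JJ012, against 42.7% of all genes in either direction.

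Of 19 tested enzymes that use or make glutamine and glutamate, 7 rose and 1 fell in JJ012, with a median of 0.45, against 19.6% and 18.6% of all genes. PPAT, the first enzyme of purine synthesis, rose from 4.05 to 10.65 FPKM, GOT1, a transaminase, from 14.49 to 32.71 FPKM and PSAT1, a transaminase of serine synthesis, from 5.0 to 10.28 FPKM. In 143B, 1 of 20 rose and 0 fell, against 6.09% and 6.65% of all genes. Less the length trend, 4 were higher in JJ012, and with TPM (FPKM rescaled to a fixed sum per library) 15 were higher. Of all genes, 34.5% passed there less the length trend (52.4% of them higher) and 52.8% with TPM (62.3% of them higher).

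The amino acid response list holds ATF4 and genes that respond to amino acid shortage, a pathway to which SLC38A2 is known to belong. In JJ012, 13 of 25 tested rose and 3 fell, with a median of 0.59, and in 143B, 2 rose and 3 fell of 25. Over all genes, 19.6% rose and 18.6% fell in JJ012, and 6.09% and 6.65% in 143B. With TPM, 20 of the list were higher and 1 was lower in JJ012, where 52.8% of all genes passed (62.3% of them higher). DDIT3, a transcription factor of that response, stood at 44.23 and 162.32 FPKM in JJ012 and at 17.53 and 10.88 FPKM in 143B, where it fell by 0.64 on the log2 scale. SLC7A11 and SLC7A1 belong to this list as well.

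Of 32 tested genes of lysosomal amino acid sensing, the machinery that SLC38A9 signals to, 4 rose and 4 fell in JJ012 (median -0.06), and in 143B 2 rose and 2 fell of 30. The shares in JJ012 were below the 19.6% and 18.6% of all genes, and in 143B 6.09% of all genes rose and 6.65% fell. With TPM, 11 were higher and 1 was lower in JJ012, and less the length trend 2 were higher. Over all genes, 52.8% passed with TPM (62.3% of them higher) and 34.5% less the length trend (52.4% of them higher). FNIP2 and FNIP1, partners of folliculin, rose in JJ012 from 7.67 to 31.94 FPKM and from 9.70 to 22.35 FPKM. LAMTOR4, a subunit of the Ragulator complex, fell from 19.59 to 8.66 FPKM. For PI3K, AKT and SGK signalling, 3 of 21 rose and 0 fell in JJ012 (median 0.29, and -0.03 less the length trend), and in 143B 1 of 18 rose. The share that rose in JJ012 was below the 19.6% of all genes. With TPM, 12 were higher in JJ012, and less the length trend 1 was higher and 1 lower, against the same shares of all genes as above. The transcription factor gene FOXO3 rose in JJ012 from 8.22 to 23.85 FPKM. The kinase genes PDPK1 and PIK3CA rose there by 0.91 and 0.73, and were at 0.57 and 0.39 less the length trend.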

How the data were processed

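RNA from 4 libraries, 1 per condition, was poly(A)-selected and sequenced as paired ends. Per the submitters' processing notes, the tools named are cutadapt 1.9.1, HISAT2 2.2.1, HTSeq 0.6.1 and DESeq2, with build hg38; the strand setting of the counting is not given in the sources used here. Counts per gene, whole and not normalized, were deposited by the authors together with FPKM, which are the counts divided by exonic length and by the library total. A column name ending in T was taken to mean melatonin and a bare line name control. Counts are per gene, so transcripts of a gene were not separated. The deposited positions of 99.84% of 58254 shared genes overlapped those of GENCODE 29.

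Fold changes used FPKM with a pseudocount of 1, genes with at least 1 FPKM in 1 of the 2 libraries, and a threshold of 0.58. CPM was computed from the deposited counts, with exact 95% intervals, and a floor of 3 counts. The edgeR fit kept genes with at least 10 counts in at least 2 libraries and used TMM factors. The fold rule, the interval of the CPM ratio, the length trend and the edgeR test of the common melatonin effect were tried on simulated data. The spread simulated for edgeR was smaller than that estimated from these libraries. The other procedures were not simulated. The length trend was a running median over 501 genes ordered by exonic length. Alternatives were other pseudocounts, filters, scalings and thresholds, and DESeq2. The shares of called genes among protein-coding genes alone were added after seeing the data.

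The members and lists were chosen with earlier results of these data known. Named genes are all 10 members, the 5 genes nearest SLC38A5, and up to 3 genes of each of 5 lists with the largest fold change with melatonin in either line, past 0.58 and with at least 5 FPKM. Computations used R 4.3.3, edgeR 4.0.16, DESeq2 1.42.0, and Python 3.11.15 with pandas 2.3.3, scipy 1.17.1, matplotlib 3.10.9 and numpy 2.4.6.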

Additional observations from a re-analysis of the deposited data

Results flagged for a closer look

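The melatonin effect on 4 members differed between JJ012 and 143B beyond counting error. The values are the log2 of the ratio of CPM ratios, JJ012 less 143B, and each rests on 1 library per condition, so they compare libraries and not conditions. SLC38A2 differed by 0.65, with 73.62 and 115.09 FPKM in JJ012 against 225.67 and 224.28 FPKM in 143B. SLC38A9 differed by 1.09, with 315 and 532 counts in JJ012 against 180 and 184 counts in 143B. SLC38A3 differed by -3.79, with 105 and 5 counts in JJ012 against 37 and 32 counts in 143B. SLC38A10 differed by -0.98, with opposite signs of the CPM ratio in the lines (-0.57 and 0.42). No explanation was tested.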

How the results depend on the processing

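The additive fit already held the cell line as a block, so that melatonin and control were compared within each line, and the labels give no replicate numbers for any further pairing. Leaving out 1 library would leave no residual degree of freedom. The count of members that passed with melatonin in JJ012 went from 4 to 2 with a filter of 5 FPKM (39.7% of all genes). It also went to 2 with a threshold of 1 (14.7% of all genes). In 143B it went from 0 to 2 with TPM (SLC38A1 and SLC38A5, against 28.6% of all genes). There it was 1 with DESeq2 size factors (SLC38A1, 13.3%) and 2 by the rule on the CPM ratio (16.5%). Between the controls it went from 8 to 4 with a filter of 5 FPKM (69.5% of all genes). With DESeq2 in place of edgeR, the members with a common melatonin effect went from 1 to 0, and the genes called over the table from 69 to 7 (330 at an unadjusted p below 0.05). The 6 members with a line difference passed in every setting run. SLC38A5 in 143B had a log2 fold change of -2.08 with a pseudocount of 0.1 FPKM and -1.46 with TPM, against -0.49. As shares of counts, SLC38A2 gave 51.8% and 70.4% in JJ012 and 84.6% and 87.6% in 143B, SLC38A10 gave 37.2%, 21.8%, 1.66% and 2.31%, SLC38A5 gave 4.69%, 0.833% and 0.105% in the first 3 libraries and SLC38A1 gave 11.6% and 8.1% in 143B, since the exonic length is then left in. With TPM the median gene of JJ012 moved to 0.21 with melatonin, and 62.3% of the genes passing there were higher, against 51.4%. The restriction to protein-coding genes was chosen after seeing the data. Causes of the other changes were not tested. Depth limits SLC38A5 in 143B, SLC38A1 and SLC38A4 in JJ012 and SLC38A11 in every library.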
